A study of Mus musculus with 16 samples.

Results

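The genes described here encode receptors and adhesion molecules through which eosinophils sense and enter tissue: the oxysterol receptor gene Gpr183, the chemokine receptor gene Ccr1, the nucleotide-sugar receptor gene P2ry14, the integrin genes Itgam, Itgb1 and Itgb2, the junctional adhesion gene Jaml and the urokinase receptor gene Plaur. These 8 genes were chosen by their function from the 1413 genes that the authors listed as changed between times of day in at least one of 2 eosinophil subsets. Their changes are therefore given as a description and were not tested. RNA came from sorted eosinophils of the mouse duodenum, taken from the lamina propria, the connective tissue under the epithelium. The 16 libraries were 4 of CD11c-low and 4 of CD11c-high cells at zeitgeber time 15 (ZT15, counted in hours from lights on), and 4 of CD11c-low and 4 of CD11c-high cells at ZT3. CD11c is the integrin alpha chain encoded by Itgax, and it served as the sorting marker. Each library came from 1000 cells, and the sources used here do not give the strain, genotype or age of the mice, or whether animals were pooled.

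Leukocytes leave the blood and move through tissue in steps that these genes serve. G protein-coupled receptors read attractants: Gpr183 reads oxysterols made from cholesterol, Ccr1 reads chemokines such as Ccl3 and Ccl5, and P2ry14 reads UDP-glucose and related sugars, which stressed cells release. Integrins are pairs of one alpha and one beta chain that grip matrix or cell-surface ligands once activated. Itgam pairs with Itgb2 to form Mac-1, and Itgb1 pairs with Itga4 to form VLA-4, both of which are used by eosinophils. Jaml binds the epithelial junction protein encoded by Cxadr, and the receptor encoded by Plaur holds urokinase at the cell surface.

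Only the authors' comparison of ZT15 with ZT3 in each subset was analysed here, with no value for any single library. Fold changes are on the log2 scale, ZT15 over ZT3, shrunken towards 0 by the authors and followed by ± 1 posterior standard deviation, so a positive value means a higher level at ZT15. An s-value states which share of signs would be wrong if a gene and all genes ranked above it were called, and 100% of the genes in both of the authors' deposited tables have one under 0.05. The number of genes tested was not analysed here, so the share of tested genes that were called is not given. In CD11c-low cells 6 of the 8 genes were listed, 5 of them higher and 1 lower at ZT15, beside 52.2% of the 1340 listed genes that were higher and 47.8% that were lower. In CD11c-high cells 5 of the 8 were listed, 4 higher and 1 lower, beside 54.1% of the 172 listed genes that were higher and 45.9% that were lower. Nothing is read from these counts, since the genes were taken from these same comparisons.

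Gpr183 and Ccr1 rose at ZT15 in both subsets, and P2ry14 rose in CD11c-low cells. In CD11c-low cells Gpr183 (ENSMUSG00000051212.9), whose receptor guides immune cells along oxysterol gradients, rose by 1.01 ± 0.22 in the authors' deposited table (s-value 2.12e-07), which is 2.02-fold. By size of change it ranked 29 of 1340 in the authors' deposited table of CD11c-low cells, so 2.09% of the listed genes changed more. The CD11c-high value was 0.26 ± 0.22 in the authors' deposited table (s-value 0.0383), which is 1.20-fold. Its posterior standard deviation was thus nearly the same in both subsets, while the estimate was smaller in CD11c-high cells. Both follow shrinkage by an unknown amount, so they do not show equal precision of the data. Ccr1 (ENSMUSG00000025804.6), a receptor for inflammatory chemokines, rose by 0.53 ± 0.20 in CD11c-low cells (s-value 0.000543) and by 0.17 ± 0.13 in CD11c-high cells (s-value 0.0473) in the authors' deposited tables. P2ry14 (ENSMUSG00000036381.14) rose by 0.16 ± 0.11 in the authors' deposited table of CD11c-low cells (s-value 0.0319). That is a 1.11-fold change, and its size ranked 1339 of 1340 in the authors' deposited table. P2ry14 was not listed in CD11c-high cells, where its change was not analysed here. In sorted bulk samples a change in the share of cells that express a gene and a change in RNA per cell cannot be told apart.

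**Figure D1:**
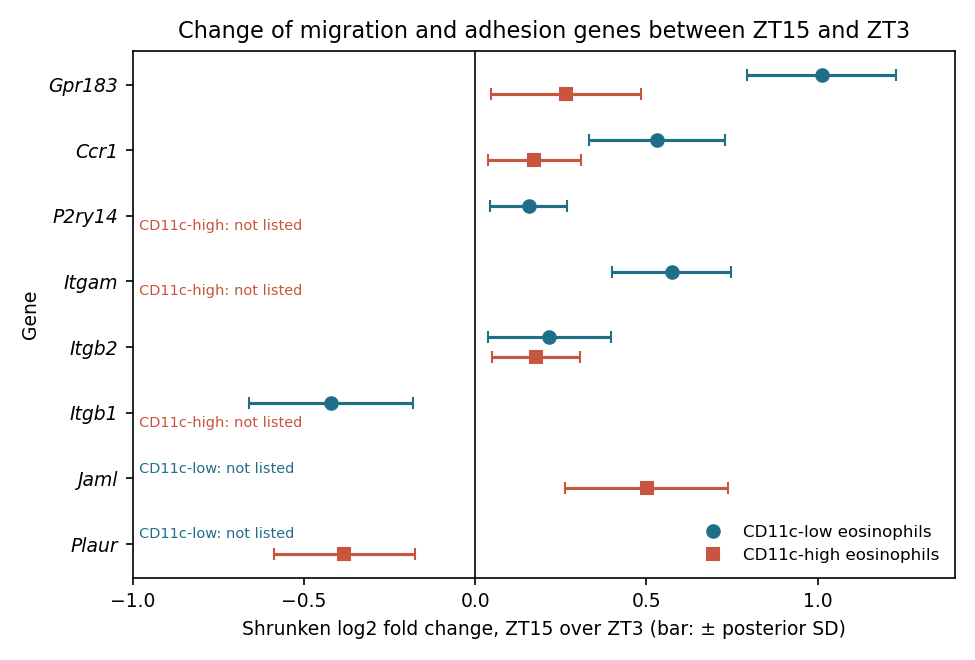
Shrunken log2 fold change at ZT15 over ZT3 (x axis) of each gene (y axis) in CD11c-low (circles) and CD11c-high eosinophils (squares), with bars of ± 1 posterior standard deviation and 4 libraries per time and subset. Gpr183 in CD11c-low cells stands at 1.01 ± 0.22, and only Itgb1 in CD11c-low cells (-0.42 ± 0.24) and Plaur in CD11c-high cells (-0.38 ± 0.21) lie left of 0.

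Promoters of 7 of the 8 genes, in 10 windows, were taken from RefSeq (build GRCm38.p6), each with 250 bases before and 50 after an annotated start. Itgb2 had no entry. They were searched on both strands for the E-box CACGTG and the D-box TTATGTAA of the circadian clock, the ROR site AGGTCA, the cAMP response element TGACGTCA, the AP-1 site TGAGTCA and the GATA site AGATAA. Gpr183 and Ccr1 are printed because both rose in both subsets. Neither window holds any of these letters, so no base is in capitals. The Gpr183 window lies at chr14:121965144-121965443 on the minus strand and the Ccr1 window at chr9:123968643-123968942 on the minus strand.
Gpr183: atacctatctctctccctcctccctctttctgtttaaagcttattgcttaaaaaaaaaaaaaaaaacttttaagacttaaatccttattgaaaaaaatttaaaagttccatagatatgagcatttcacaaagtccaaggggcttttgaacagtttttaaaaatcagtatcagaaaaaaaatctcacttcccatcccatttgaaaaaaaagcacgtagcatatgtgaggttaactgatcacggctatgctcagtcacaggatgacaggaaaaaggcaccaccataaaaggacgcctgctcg
Ccr1: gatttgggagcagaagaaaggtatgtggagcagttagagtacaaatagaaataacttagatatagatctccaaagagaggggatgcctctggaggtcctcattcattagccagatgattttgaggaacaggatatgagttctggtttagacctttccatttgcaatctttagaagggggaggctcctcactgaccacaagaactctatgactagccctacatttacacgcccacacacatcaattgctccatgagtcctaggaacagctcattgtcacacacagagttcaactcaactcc
P2ry14 has 4 annotated starts in that table. The window at chr3:59153443-59153742 holds an AP-1 site at bases -202 to -196 from the start and a GATA site at -72 to -67. The window at chr3:59131279-59131578 holds a ROR site at -75 to -70 and a GATA site at -216 to -211, and the window at chr3:59130713-59131012 holds a GATA site at 44 to 49. Of all 32851 promoter windows, 16.3% hold the ROR site, 11.2% the GATA site, 7.15% the E-box, 5.20% the AP-1 site, 1.79% the cAMP response element and 0.938% the D-box. No window of the 7 genes holds the E-box, the D-box or the cAMP response element. A match is a stretch of letters and not a measured site, and the start that these eosinophils use was not analysed here.

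In CD11c-low cells both chain genes of Mac-1 were listed as higher at ZT15, Itgb2 close to the s-value threshold, and Itgb1 was listed as lower. Itgam (ENSMUSG00000030786.19), the alpha chain CD11b, rose by 0.57 ± 0.17 in the authors' deposited table (s-value 6.23e-05), which is 1.49-fold. Its partner Itgb2 (ENSMUSG00000000290.14), the beta chain CD18 shared with CD11c, rose by 0.22 ± 0.18 (s-value 0.0437) in the authors' deposited table. Itgb2 also rose in CD11c-high cells, by 0.18 ± 0.13 (s-value 0.0399) in the authors' deposited table, where Itgam was not listed. Itgb1 (ENSMUSG00000025809.16), the beta chain CD29, fell by 0.42 ± 0.24 in CD11c-low cells, per the authors' deposited table (s-value 0.0106), to 0.747 of its ZT3 level. Itga4, the alpha chain that pairs with it in VLA-4, rose by 0.21 ± 0.15 there, per the authors' deposited table. Of 26 integrin subunit genes, these 3 and Itga4 were listed in CD11c-low cells, 3 higher and 1 lower with a median of 0.21, and Itgb2 alone in CD11c-high cells. Itgax, which encodes CD11c itself, was listed in neither subset. In the GENCODE M21 annotation, 3450 of the 5024 exon bases of Itgam are shared with the same-strand gene Gm49368, and the sources used here do not say how shared reads were counted, so the Itgam value is uncertain in that respect.

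Jaml and Plaur were listed in CD11c-high cells and not in CD11c-low cells, where their changes were not analysed here. Jaml (ENSMUSG00000048534.8) rose by 0.50 ± 0.24 in the authors' deposited table of CD11c-high cells (s-value 0.000770), which is 1.42-fold and rank 15 of 172 by s-value. Plaur (ENSMUSG00000046223.11) fell by 0.38 ± 0.21 in the authors' deposited table (s-value 0.00388), to 0.768 of its ZT3 level and rank 24 of 172. These were the smallest s-values among the 5 genes listed in CD11c-high cells. In GENCODE M21 an opposite-strand long noncoding RNA gene, Gm10684, covers 397 of the 3108 exon bases of Jaml, and the sources used here do not say whether the counting used strand, so reads of that stretch cannot be assigned. Their promoter windows are printed because these genes moved in opposite directions in the same cells. The Jaml window is chr9:45078933-45079232 on the plus strand, with a ROR site (read on the other strand) in capitals at -80 to -75, and the Plaur window is chr7:24462233-24462532 on the plus strand, with an AP-1 site in capitals at -69 to -63.
Jaml: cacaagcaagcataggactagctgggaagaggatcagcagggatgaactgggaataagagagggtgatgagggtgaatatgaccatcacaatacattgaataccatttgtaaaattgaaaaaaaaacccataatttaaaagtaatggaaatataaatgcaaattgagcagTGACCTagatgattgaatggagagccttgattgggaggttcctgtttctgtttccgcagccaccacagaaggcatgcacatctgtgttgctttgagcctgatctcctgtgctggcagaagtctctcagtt
Plaur: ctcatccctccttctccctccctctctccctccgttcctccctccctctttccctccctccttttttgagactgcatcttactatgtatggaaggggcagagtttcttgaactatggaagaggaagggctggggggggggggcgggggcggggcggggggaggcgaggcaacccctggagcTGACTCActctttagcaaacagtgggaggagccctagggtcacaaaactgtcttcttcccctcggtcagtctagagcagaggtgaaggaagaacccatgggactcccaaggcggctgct

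The authors' mean normalised count, taken as an average over libraries of both times, was divided by transcript length before levels of genes were compared. The length was that of the longest protein-coding transcript in GENCODE M21. In CD11c-low cells P2ry14 had the highest level of the 6, at 2622 mean normalised counts per kilobase from the authors' deposited table, rank 36 of 1269 listed genes with a length. This rests on a length of 2.476 kilobases, while all annotated exons of P2ry14 together cover 11059 bases. How reads over those exons were counted is not known, so its place as the highest is uncertain. Itgb2 followed at 605 per kilobase, Ccr1 at 446, Itgam at 267, Gpr183 at 146 and Itgb1 at 62.2, from counts in the authors' deposited table, beside a median of 111 over the listed genes. By these lengths the order by level was not the order by change. P2ry14 had the highest level and the smallest change, and Gpr183 had the largest change at a level above that of Itgb1 alone. Each gene had to pass the s-value threshold. A change as small as that of P2ry14 passes it only with a small standard deviation, here 0.11, so nothing is read from this contrast. In CD11c-high cells Plaur stood at 1776 per kilobase, Itgb2 at 369, Ccr1 at 299, Jaml at 218 and Gpr183 at 100.2, from counts in the authors' deposited table, beside a median of 127. The spread of these levels over libraries was not analysed here, so neighbours in either order are not said to differ. The subsets were taken as normalised separately, and no level is compared between them.

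Each gene has a false sign rate of its own, recovered from successive s-values. An s-value under 0.01 was held by 3 of the 6 genes in CD11c-low cells, beside 38.7% of the listed genes, and by 2 of the 5 in CD11c-high cells, beside 22.1%. The own rate was under 0.05 for 4 of the 6 genes in CD11c-low cells, beside 52.7% of the listed genes, and for 2 of the 5 in CD11c-high cells, beside 45.3%. In CD11c-low cells these were Gpr183, Itgam, Ccr1 and Itgb1, while the rate was 0.0836 for P2ry14 and 0.109 for Itgb2, computed from the authors' deposited table. In CD11c-high cells Jaml and Plaur were under 0.05, and the rate was 0.0714 for Gpr183, 0.0723 for Itgb2 and 0.0855 for Ccr1, computed from the authors' deposited table. The s-values nearest the authors' threshold of 0.05 were those of Ccr1 (0.0473) in CD11c-high and Itgb2 (0.0437) in CD11c-low cells, per the authors' deposited tables, and values beyond the threshold were not analysed here. The median change of the 5 genes that rose in CD11c-low cells was 0.53, beside 0.35 over the 660 listed genes that rose there, immunoglobulin segments and predicted genes left out. In CD11c-high cells the median of the 4 that rose was 0.22, beside 0.26 over 81 genes.

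**Figure D2:**
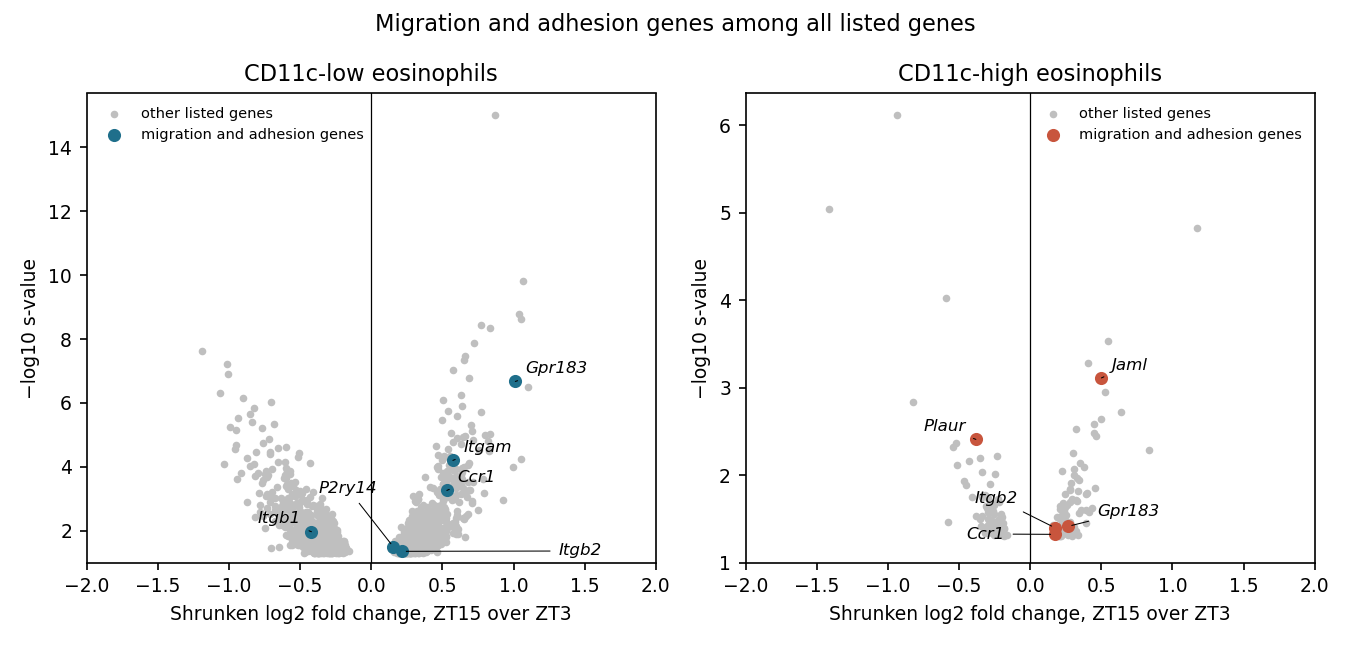
Shrunken log2 fold change at ZT15 over ZT3 (x axis) against -log10 of the s-value (y axis) for all genes in the authors' deposited tables (grey) with the migration and adhesion genes coloured, in CD11c-low (left) and CD11c-high eosinophils (right). The x axis ends at 2 in each direction, which leaves out 19 genes on the left and 11 on the right; Gpr183 stands at 1.01 in CD11c-low cells, and P2ry14 (0.16) and Itgb2 (0.22) lie near the s-value threshold.

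Gpr183, Ccr1 and Itgb2 were listed in both subsets and rose in each. They are 3 of the 6 genes listed in CD11c-low cells and 3 of the 5 in CD11c-high cells, beside 7.24% and 56.4% of all genes listed in those subsets that were listed in both with one direction. The estimate was larger in CD11c-low cells for each of the 3. For Gpr183 the difference, CD11c-low minus CD11c-high, was 0.75 with a combined standard deviation of 0.31, for Ccr1 it was 0.36 with 0.24 and for Itgb2 it was 0.04 with 0.22, computed from the authors' deposited tables. Among the 47 genes higher in both, immunoglobulin segments and predicted genes left out, 3 including Gpr183 had a difference as large as that of Gpr183, and the median difference was 0.16. A larger estimate in CD11c-low cells was the common case, found for 77 of the 93 such genes listed in both. These differences were not tested, because the genes were chosen on these values and both estimates are shrunken by an unknown amount.

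**Figure D3:**
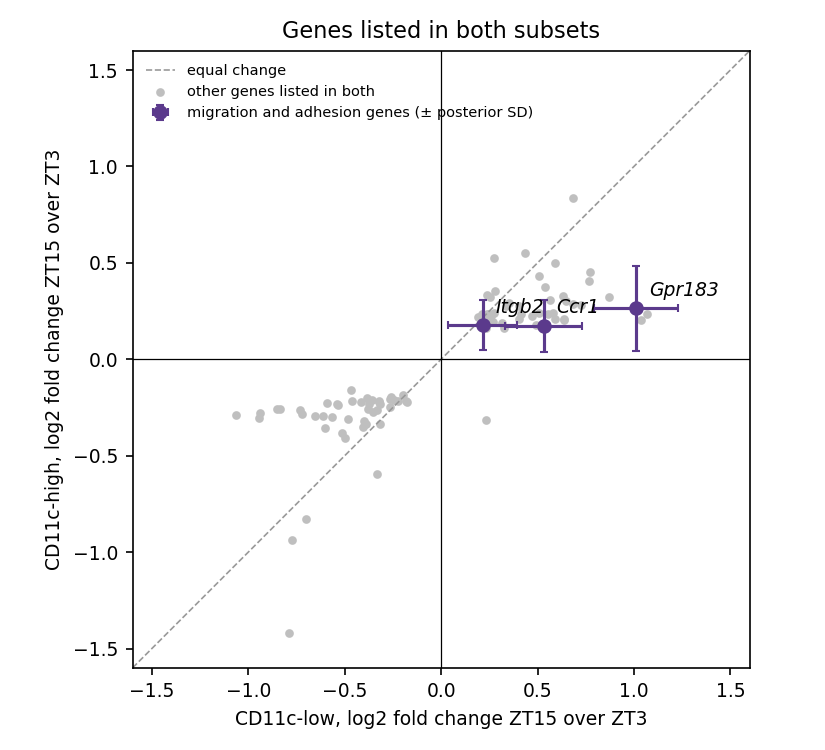
Log2 fold change at ZT15 over ZT3 in CD11c-low (x axis) and CD11c-high eosinophils (y axis) for the 93 genes listed in both, immunoglobulin segments and predicted genes left out; coloured points with bars of ± 1 posterior standard deviation are Itgb2, Ccr1 and Gpr183, and the dashed line marks equal change. Gpr183 (1.01 and 0.26) lies farthest below the line of these 3 genes, and Itgb2 (0.22 and 0.18) lies close to it.

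For each of these 3 genes, the 3 genes with the most similar pair of changes were found by Euclidean distance over the 2 subsets. Nearest to Gpr183 were Rnf125, a ubiquitin ligase gene, Il1r2, the interleukin-1 decoy receptor gene, and Dgat1, a triglyceride synthesis gene, at distances of 0.06, 0.06 and 0.15 on the log2 scale. Nearest to Ccr1 were the transglutaminase gene Tgm2 (0.04), the phosphatase gene Ptpn1 (0.07) and Bbx (0.07). For Itgb2 they were Kmt2e (0.02), Pbxip1 (0.02) and the kinase gene Jak1 (0.04). These distances rest on 2 values per gene, and the search covered only the 93 genes listed in both. Each distance is smaller than either posterior standard deviation of its gene. In CD11c-low and CD11c-high cells these were 0.22 and 0.22 for Gpr183, 0.20 and 0.13 for Ccr1, and 0.18 and 0.13 for Itgb2. Which genes are nearest is therefore not settled.

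Among other genes of the same pathways, some rose and others fell in CD11c-low cells. Over all 8 lists, 176 genes besides the members were looked up, and 15 were listed as higher and 12 as lower at ZT15 in CD11c-low cells, with medians of 0.30 and -0.44. In CD11c-high cells 2 were higher and 1 was lower. Of all listed genes, 52.2% were higher in CD11c-low cells and 54.1% in CD11c-high cells, and the counts per list below stand beside these shares. Of the 40 chemoattractant receptors, 5 were listed in CD11c-low cells, 4 higher and 1 lower. Besides Gpr183 and Ccr1, the leukotriene B4 receptor gene Ltb4r1 rose by 0.33 ± 0.20 and the short-chain fatty acid receptor gene Ffar2 by 0.27 ± 0.17 in the authors' deposited table, and the receptor gene for Cxcl12, Cxcr4, fell by 0.47 ± 0.28. In CD11c-high cells the receptor gene for platelet-activating factor, Ptafr, rose by 0.21 ± 0.14 in the authors' deposited table, so 3 of the 40 were higher there and none was lower. The eotaxin receptor gene Ccr3 was listed in neither subset. Among the 19 nucleotide and adenosine receptor and ectoenzyme genes, the lipid-sensing receptor gene P2ry10 fell by 0.58 ± 0.22 and the ectonucleotidase gene Entpd1 rose by 0.22 ± 0.14 in the authors' deposited table of CD11c-low cells. None of the 19 was listed in CD11c-high cells, and none of the 4 enzymes that make or break down oxysterol ligands of Gpr183 was listed in either subset.

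Of 32 integrin activation and adhesion-complex genes, 5 were higher and 6 lower in CD11c-low cells, a mix near that of all listed genes there (52.2% higher, 47.8% lower). The adaptor gene Lims1 rose by 0.60 ± 0.16, the adaptor gene Fyb by 0.46 ± 0.13 and the talin gene Tln1 by 0.40 ± 0.19 in the authors' deposited table. The genes that fell included Cd47 (-0.51 ± 0.15), which encodes an integrin-associated surface protein, the small GTPase gene Rap1b (-0.47 ± 0.19) and the paxillin gene Pxn (-0.45 ± 0.24), per the authors' deposited table. Rap1b was also the 1 gene of this list called in CD11c-high cells, where it fell by 0.16 ± 0.12, per the authors' deposited table. Of 26 signalling genes between chemoattractant receptors and Rac, 3 were higher and 4 lower in CD11c-low cells, also near the mix of all listed genes. Pik3r5, a regulatory subunit of the kinase PI3K gamma, rose by 0.58 ± 0.22 while its catalytic subunit gene Pik3cg fell by 0.33 ± 0.19, per the authors' deposited table. The inhibitory G protein gene Gnai3 (-0.80 ± 0.26), the Rac activator gene Vav1 (-0.39 ± 0.26) and the G protein gamma gene Gng5 (-0.28 ± 0.20) fell, while the receptor kinase gene Grk2 rose by 0.25 ± 0.17, per the authors' deposited table. In CD11c-high cells the G protein beta gene Gnb1 was the 1 listed, with 0.24 ± 0.16 in the authors' deposited table. Of the 14 genes looked up for the urokinase and plasminogen system, 3 were higher and none lower in CD11c-low cells, beside 52.2% of all listed genes that were higher. They were the gelatinase gene Mmp9 (0.24 ± 0.13), the plasminogen receptor gene Plgrkt (0.31 ± 0.18) and the annexin gene Anxa2 (0.30 ± 0.23) in the authors' deposited table, and none of these 3 was listed in CD11c-high cells, where Plaur fell. Of 23 junction, immunoglobulin-superfamily and selectin adhesion genes, Jaml alone was listed, and only in CD11c-high cells.

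**Figure D4:**
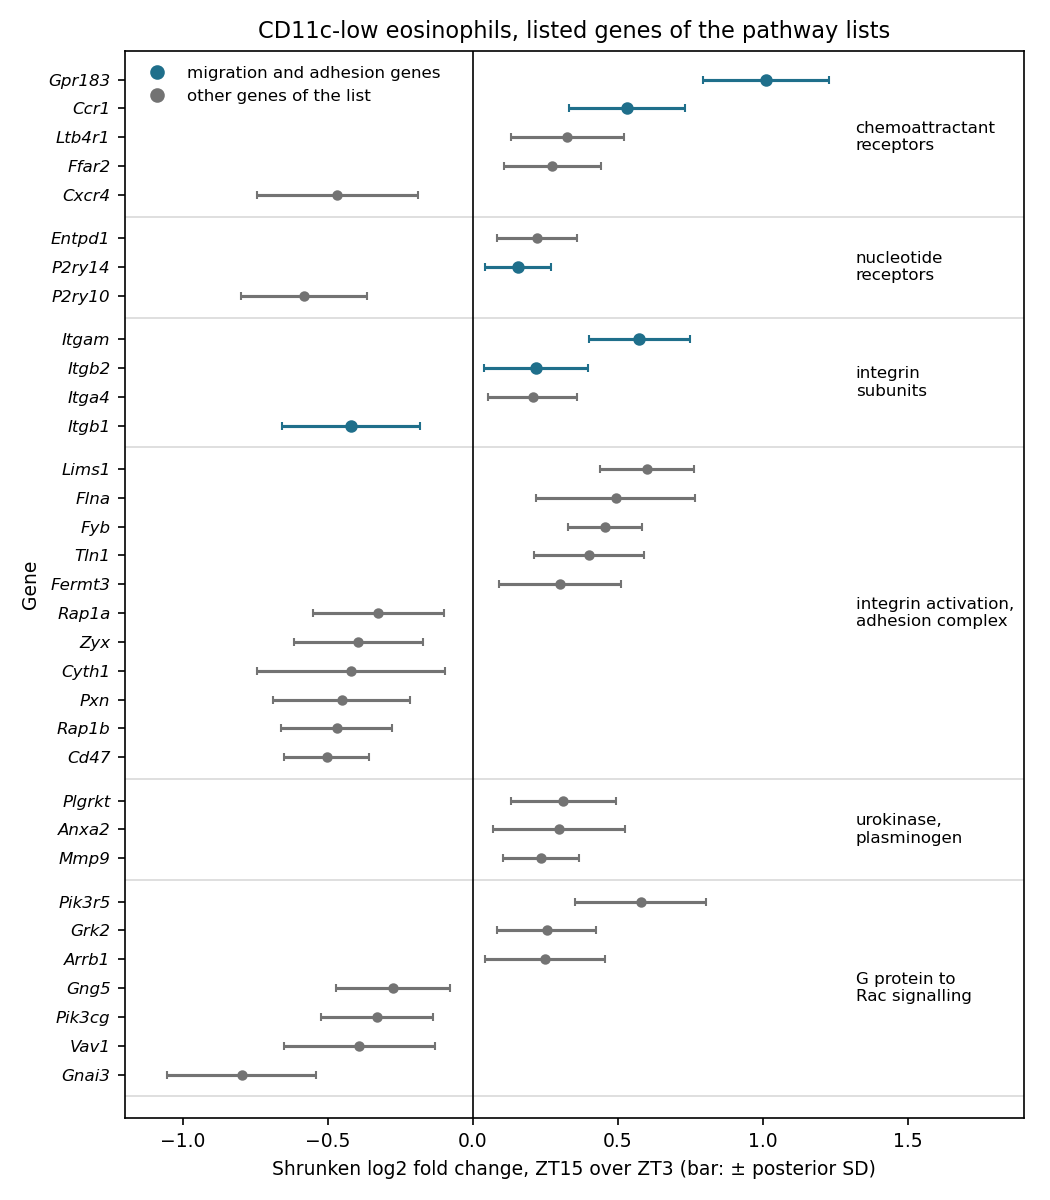
Shrunken log2 fold change at ZT15 over ZT3 in CD11c-low eosinophils (x axis) of every listed gene in 6 pathway lists (y axis), with bars of ± 1 posterior standard deviation and the migration and adhesion genes coloured. Integrin activation and adhesion-complex genes lie on both sides of 0 (5 higher, 6 lower), and Gpr183 (1.01) has the largest value shown. The 3 urokinase and plasminogen genes lie above 0, beside 52.2% of all listed genes that were higher.

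Cell identity could be checked only among changed genes. Of 18 eosinophil marker genes, 6 were listed in CD11c-low cells, 5 higher and 1 lower, and none was listed in CD11c-high cells. Beside these and the marker counts below, 52.2% of all genes listed in CD11c-low cells were higher. Per the authors' deposited table, the eosinophil markers Clec4a4 (0.47 ± 0.15), Cd274 (0.34 ± 0.21), Csf2rb (0.33 ± 0.16), Alox15 (0.26 ± 0.14) and Siglecf (0.23 ± 0.13) were higher, and Adgre1 (-0.29 ± 0.14) was lower. Their mean normalised counts ran from 306 for Cd274 to 4887 for Alox15 in the authors' deposited table, with 1633 for Siglecf. Of 81 marker genes of other cell types in 7 lists, 8 were listed in CD11c-low cells, 6 higher and 2 lower. Among markers of macrophages, monocytes and dendritic cells, which also use Itgam and Ccr1, Cd68 rose by 0.52 ± 0.30 and Cd74 fell by 0.49 ± 0.33, per the authors' deposited table. The neutrophil list, also of cells with Mac-1, had Trem1 at 0.34 ± 0.24, per the authors' deposited table. The mast cell and basophil gene Hdc, which encodes histidine decarboxylase, stood at 0.58 ± 0.20 in CD11c-low cells, and at 0.24 ± 0.19 in CD11c-high cells as the 1 such marker listed there, per the authors' deposited tables. The B cell genes Bank1 (0.32 ± 0.15) and Ighm (0.24 ± 0.20) were higher too, and the epithelial keratin gene Krt18 (-0.35 ± 0.24) was lower, per the authors' deposited table. Gzma, a granzyme gene of T and NK cells, was also higher, with a fitted change too large to be read as a fold. Mean normalised counts of these 8 markers in CD11c-low cells ran from 30.4 for Gzma to 1145 for Bank1. Hdc had 934 and Cd74 had 878, per the authors' deposited table. The marker counts are not divided by transcript length, so no level is compared between genes from them. No stromal, endothelial or nerve marker was listed in either subset. The part of other cell types in the values of the migration and adhesion genes was not tested. Mean normalised counts of the genes listed ran from 13.2 to 50146 in CD11c-low and from 11.1 to 16209 in CD11c-high cells in the authors' deposited tables.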

How the data were processed

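RNA from 16 libraries of sorted mouse duodenal eosinophils, 4 per subset and time, was analysed from 2 tables that the authors deposited. The submitters' processing notes name STAR 2.7.10b, DESeq2 1.38.3 and the build GRCm39, with no role for any of them. The sources used here do not give the counting step, the annotation or the shrinkage method. The mean normalised count is a signal made by the authors under the column header baseMean. It was taken as counts over size factors, averaged over libraries, which the header does not spell out. The deposited log2 fold changes carry standard deviations and s-values, which replace a p-value here. Since s-values are made from shrunken estimates, the fold changes are taken as shrunken. The direction was taken from the tables' names.

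Python 3.11.15 with SciPy 1.17.1, NumPy 2.4.6, pandas 2.3.3 and matplotlib 3.10.9 gave counts by direction, ranks, medians, differences between subsets, each gene's own false sign rate, counts per kilobase (GENCODE M21, GRCm38, matched by gene identifier in 1269 of 1340 and 153 of 172 genes) and motif matches in RefSeq promoters. Simulated data checked only the arithmetic of the own false sign rate. That rate assumes that no gene is missing from the authors' ranking, which was not checked. No test was run. The members and lists were chosen with earlier results of these data known. Named are all 8 members, up to 6 listed genes per pathway list and subset by s-value, all listed marker genes and the 3 genes of most similar change. One gene of the planned lists is not reported here. Planned protein comparisons were not run, and the count test planned for values per library does not apply to these tables. Depth per library is unknown, and the labels do not say whether the libraries of a group came from separate animals, so errors may be technical.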

Additional observations from a re-analysis of the deposited data

How the results depend on the processing

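Requiring a mean normalised count of at least 50 or 200 could not change the counts of migration and adhesion genes. Their lowest mean normalised counts were 237 (Itgb1) in CD11c-low and 273 (Gpr183) in CD11c-high cells. With an s-value under 0.01 the genes higher at ZT15 in CD11c-low cells numbered 3 and those lower numbered 0, the number higher in CD11c-high cells was 1, and the number listed in both was 0. With each gene's own false sign rate under 0.05 the numbers higher were 3 in CD11c-low and 1 in CD11c-high cells, and 0 genes were in both. The s-values of Itgb2 in both subsets, of P2ry14 in CD11c-low and of Gpr183 and Ccr1 in CD11c-high cells thus lie between these limits and the authors' threshold, and that of Itgb1 in CD11c-low cells misses the stricter s-value but not the false sign rate. By the false sign rate, an alternative chosen after seeing the data, 9 other pathway genes were higher and 8 lower in CD11c-low cells. In CD11c-high cells 2 were higher and 0 lower. Of all listed genes, 52.7% in CD11c-low and 45.3% in CD11c-high cells had an own rate under 0.05. Promoters cut to the 150 bases before the start held the AP-1 site in 1 gene, Plaur. Over all listed genes, the median size of the change, with its sign left out, was compared with its 95% binomial interval. It stayed within that interval without immunoglobulin segments and predicted genes, or when mean normalised counts under 50 were dropped. The share of higher genes stayed within its own 95% binomial interval without immunoglobulin segments and predicted genes or without ribosomal protein genes. No paired analysis was possible because no column belongs to a single library, and for the same reason no replicate could be left out.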
